A study of Mus musculus with 18 samples.

Results

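The expression of Trp53, the mouse gene for the transcription factor p53, and of 9 genes that p53 is known to activate was followed in mouse embryonic stem (ES) cells as they left naive pluripotency. The 10 genes (Trp53, Mdm2, Ccng1, Trp53inp1, Sesn1, Bbc3, Bax, Phlda3, Zmat3 and Pmaip1) were given by name and matched by Ensembl identifier among the 53801 genes counted, and 10 of 10 passed the filter on low counts. WT cells are E14 wild-type ES cells. iEZR_CA cells are E14 ES cells in which doxycycline switches on a phosphomimetic, constitutively active form of ezrin, a protein that ties the plasma membrane to the actin cortex. Each line was sampled at 0 h (ESC) in 2i+LIF, which keeps cells naive, and following transfer to N2B27 without the inhibitors and LIF, at 24 h (called T24) and 48 h (called T48), giving 6 groups made up of 3 biological replicates apiece. The transgene was inserted with PiggyBac and carries mCherry behind an internal ribosome entry site, all cells grew on gelatin, and whether iEZR_CA is 1 clone is not given in the sources used here. Doxycycline was added to iEZR_CA cells some 16 h ahead of exit, while none is described for WT, so the drug, the transgene and the line itself cannot be told apart.

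p53 binds DNA as a tetramer and switches on genes that halt the cell cycle, slow growth or kill the cell, and one of its targets, Mdm2, encodes the ubiquitin ligase that sends p53 to the proteasome. The activity of p53 is set largely by the stability and modification of the protein, which RNA counts do not measure. ES cells are known to carry abundant p53.

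A p53 response element consists of a pair of half-sites, and the RefSeq table of promoter windows (GRCm38.p6, 250 bases before to 50 bases after each start) was searched on both strands for adjoining half-sites. The C that opens and the G that closes the core of 4 bases had to be present in each half-site, and up to 2 mismatches were allowed at the other positions, the inner core bases included. The complete elements are shown because they sit near RefSeq starts of a member and of Cdkn1a and Rps27l, genes of the wider p53 target list described further on. Capitals mark the core of each half-site, and each element has 1 mismatch, which in Ccng1 lies inside the core of the half-site printed first.
Ccng1: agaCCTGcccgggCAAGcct
Cdkn1a: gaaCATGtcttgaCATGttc
Rps27l: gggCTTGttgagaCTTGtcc
The Ccng1 element lies at chr11:40755462-40755481 on the minus strand, 195 bases before the start of Ccng1. The Cdkn1a element lies at chr17:29090928-29090947 on the plus strand, 51 bases before the more upstream of its RefSeq starts. The window of its other start held no element. The Rps27l element lies at chr9:66946296-66946315 on the plus strand, 117 bases before the more downstream of its RefSeq starts. That is inside the annotated gene, which begins at 66946086, and the window of the upstream start held no element. Such an element was held by 1 of the 7 members with a window, by 2 of 24 other p53 targets and by 0.392% of all 27025 genes with a window. A match is a description of the letters only, and elements outside these windows were not searched.

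A single half-site without mismatch stood in the windows of 5 members, against 9.55% of all genes with a window. These 5 are printed because they show which of the promoters described below carry the letters at all.
Trp53: ggaCTTGccc
Mdm2: gaaCTTGcct
Ccng1: gggCAAGcct
Sesn1: aagCTTGttt
Bax: aggCAAGctt
They lie at chr11:69580284-69580293 (plus strand, Trp53), chr10:117710935-117710944 (minus strand, Mdm2), chr11:40755462-40755471 (minus strand, Ccng1, within the complete element), chr10:41887266-41887275 (plus strand, Sesn1) and chr7:45467090-45467099 (minus strand, Bax). The Sesn1 half-site is in the window of a downstream RefSeq start, inside the annotated gene, which begins at 41809935. The window of the upstream Sesn1 start held none. The windows of Bbc3 and Phlda3 held no exact half-site.

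Libraries held between 10940752 and 33276622 counts on genes (median 23096248), and values are given as normalized counts, that is counts divided by a DESeq2 size factor of the library. A log2 fold change is the edgeR estimate with its standard error (SE), and a gene is called higher or lower where the adjusted p of edgeR's quasi-likelihood test, over 18469 genes, was under 0.05. At these depths the coefficient of variation of a member among the 3 libraries of a group had a median of 2.92% and a maximum of 12.1%, so differences of a few percent can pass the test. Ezr, the gene of the transgene, was higher in iEZR_CA libraries by 1.07 (SE 0.025), 1.43 (SE 0.026) and 0.69 (SE 0.026) on the log2 scale at ESC, T24 and T48. The 6 pluripotent cell markers (Pou5f1, Sox2, Nanog, Zfp42, Esrrb and Sall4) were detected in every library, with a summed level between 99283 and 101012 in WT ESC and between 85856 and 87409 in iEZR_CA ESC. Their sum fell to between 23638 and 24321 in WT T48 and to between 29491 and 30701 in iEZR_CA T48. The summed level of 10 primitive endoderm markers was 2223 to 2329 in WT and 4495 to 4815 in iEZR_CA ESC, and 1654 to 1746 in WT and 1193 to 1225 in iEZR_CA T48, with Sox7 at the floor (3 counts or fewer per library) in iEZR_CA ESC and T48. Lama1 alone averaged 1764 in WT ESC and 3606 in iEZR_CA ESC. Of these 10 markers, 3 were called higher and 3 lower in iEZR_CA cells at ESC, beside 54.5% of all genes called. At T48, 1 was called higher and 7 lower, beside 61.1%. The summed level of 8 fibroblast markers was at most 690 in any library, with Postn at the floor in every group. That of 6 trophoblast markers was highest in WT ESC (3004 to 3098, with Elf5 and Hand1 at the floor). Tfap2c alone averaged 2855 in WT ESC and so made up most of that sum. The part of these markers in the members' differences was not tested. Reads of low alignment quality made up 0.519% to 0.612% of WT and 0.889% to 1.02% of iEZR_CA libraries, and their part in the differences between the lines was not tested. Per kilobase of exon, the WT ESC means of normalized counts ran from 31.4 for Pmaip1 through 253 for Sesn1, 1117 for Mdm2 and 2697 for Trp53 to 2701 for Ccng1, and by T48 Pmaip1 stood at 1777. In bulk RNA, fewer cells that express a gene and less RNA per cell cannot be told apart.

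Trp53 itself, at chr11:69580359-69591873 on the plus strand (GRCm38), was lower in iEZR_CA than in WT cells in 2i+LIF and higher at 48 h. In WT cells the normalized counts were 10903, 10848 and 10972 at ESC, 12050, 11675 and 11887 at T24, and 5615, 5669 and 6052 at T48. In iEZR_CA cells they were 8870, 8899 and 9047 at ESC, 10635, 10782 and 11085 at T24, and 7105, 7314 and 7447 at T48. The iEZR_CA libraries lay below all WT libraries at ESC and T24 and above all of them at T48. The difference between the lines was -0.29 (SE 0.027, adjusted p = 1.9e-15) at ESC, -0.13 (SE 0.026, adjusted p = 1.6e-05) at T24 and 0.34 (SE 0.027, adjusted p = 1.2e-17) at T48. Both lines rose to their highest mean at T24 and then dropped, with an ESC mean 1.89-fold the T48 mean in WT and 1.23-fold in iEZR_CA cells. From the highest mean to the lowest, the order was WT T24, WT ESC, iEZR_CA T24, iEZR_CA ESC, iEZR_CA T48 and WT T48, and of neighbours in that order only WT ESC and iEZR_CA T24 had overlapping libraries. A processed pseudogene, Trp53-ps, is counted as a gene of its own and held 4503 counts over all 18 libraries, so reads that fit both copies may be missing from Trp53.

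Mdm2 (chr10:117688875-117710758, minus strand) closes the feedback loop on p53, and it differed between the lines in the same direction as Trp53 at each stage. WT libraries held 5716, 5546 and 5775 normalized counts at ESC, 5092, 5345 and 5128 at T24, and 3485, 3455 and 3589 at T48. iEZR_CA libraries held 4865, 4841 and 4955 at ESC, 4853, 4699 and 4634 at T24, and 4274, 4345 and 4344 at T48. WT cells therefore had the highest and the lowest group mean, at ESC and T48, while the 3 iEZR_CA groups lay between them, and only the iEZR_CA ESC and T24 libraries overlapped. Mdm2 was lower in iEZR_CA cells at ESC (log2 fold change -0.22, SE 0.028, adjusted p = 2e-10) and T24 (-0.13, SE 0.028, adjusted p = 3.3e-05), and higher at T48 (0.30, SE 0.029, adjusted p = 1.2e-14). Over 48 h Mdm2 fell to 61.8% of its ESC mean in WT cells (log2 fold change -0.71, SE 0.029) and to 88.4% in iEZR_CA cells (-0.18, SE 0.028), and the second of these turned to 0.080 when libraries were scaled on the spike-in sequences.

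Ccng1 (chr11:40748552-40755311, minus strand) encodes cyclin G1, a p53 target whose product recruits a phosphatase to Mdm2, and it changed little over time in WT cells. WT libraries held 9470, 9576 and 9415 normalized counts at ESC, 8593, 9259 and 8955 at T24, and 8713, 9074 and 8710 at T48. iEZR_CA libraries held 9157, 8863 and 8947 at ESC, 8699, 8720 and 8896 at T24, and 7236, 7496 and 7381 at T48. The iEZR_CA T48 libraries stood below all others, and 4 groups in the middle of the order (iEZR_CA ESC, WT T24, WT T48 and iEZR_CA T24) overlapped one with the next. Between the lines Ccng1 differed by -0.09 (SE 0.026, adjusted p = 0.0039) at ESC and -0.25 (SE 0.026, adjusted p = 3.1e-13) at T48, and the T24 value of -0.02 (SE 0.026) did not pass the test (adjusted p = 0.43). In WT cells the change from ESC was -0.10 (SE 0.026) at T24 and -0.12 (SE 0.026) at T48 and turned to 0.035 and 0.14 with spike-in scaling, and its direction thus depends on the scaling.

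**Figure D1:**
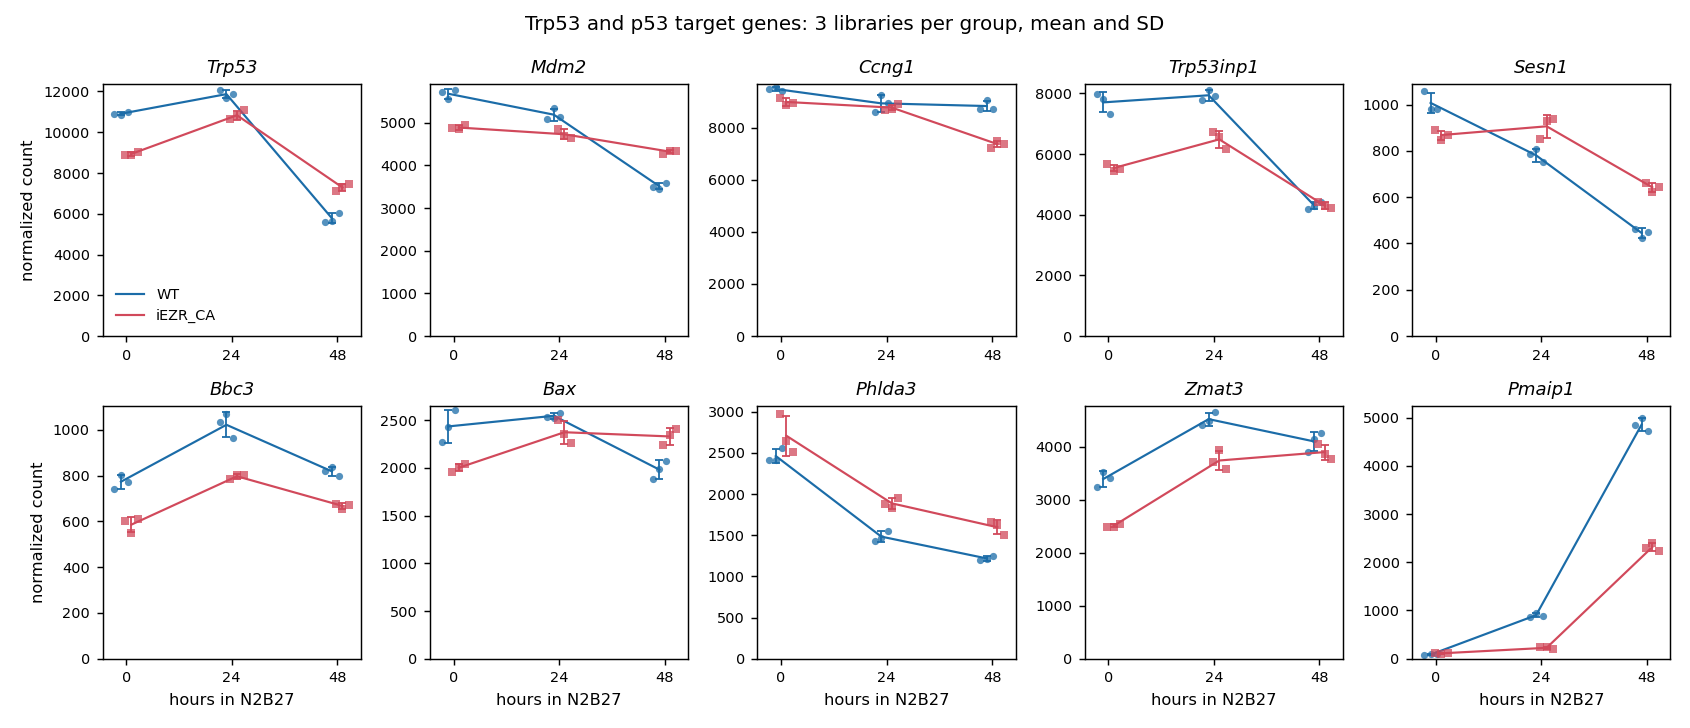
Normalized counts (vertical axes, starting at 0) of Trp53 and the 9 targets against hours in N2B27. Points are libraries (circles, WT; squares, iEZR_CA), lines join the means and bars are the SD of 3 libraries. The lines cross for Trp53 and Mdm2 between 24 h and 48 h, and Pmaip1 rises to 4854 in WT and 2313 in iEZR_CA cells.

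The members with roles in growth control and autophagy did not share a single course. Trp53inp1 (chr4:11156431-11174379, plus strand), which encodes a nuclear protein that promotes autophagy and p53-dependent death, held 7978, 7806 and 7334 normalized counts in WT ESC, 7777, 8128 and 7918 in WT T24, and 4202, 4289 and 4424 in WT T48. In iEZR_CA cells it held 5666, 5444 and 5512 at ESC, 6723, 6562 and 6176 at T24, and 4424, 4274 and 4208 at T48. It was thus the member with the largest fall between the lines at ESC (-0.48, SE 0.030, adjusted p = 3.2e-22), the libraries of the lines were still apart at T24 (-0.29, SE 0.030, adjusted p = 2.3e-13), and they overlapped at T48 (0.01, SE 0.031, adjusted p = 0.90). In the order of levels WT T24 and WT ESC overlapped, as did the T48 groups at the bottom.

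Sesn1 (chr10:41809935-41908424, plus strand) encodes a sestrin, a stress-induced inhibitor of the growth kinase complex mTORC1. WT libraries held 1059, 982 and 982 normalized counts at ESC, 784, 808 and 750 at T24, and 464, 423 and 449 at T48. iEZR_CA libraries held 888, 849 and 868 at ESC, 850, 930 and 939 at T24, and 662, 622 and 644 at T48. The lines did not overlap at any stage, with iEZR_CA lower at ESC (-0.22, SE 0.048, adjusted p = 8.6e-05) and higher at T24 (0.22, SE 0.050, adjusted p = 0.00011) and T48 (0.52, SE 0.057, adjusted p = 2.2e-12). In WT cells Sesn1 fell at both steps, to 44.2% of the ESC mean at T48. In iEZR_CA cells the T24 value was not called against ESC (0.07, SE 0.050, adjusted p = 0.25), and the T48 mean was 74.0% of the ESC mean.

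Phlda3 (chr1:135766119-135769136, plus strand), the gene of a small protein that competes with the kinase Akt for membrane lipids, fell with time in both lines and was higher in iEZR_CA cells. WT libraries held 2414, 2418 and 2556 normalized counts at ESC, 1430, 1466 and 1554 at T24, and 1196, 1210 and 1248 at T48. iEZR_CA libraries held 2977, 2640 and 2510 at ESC, 1878, 1827 and 1957 at T24, and 1664, 1630 and 1498 at T48. The libraries of the lines overlapped at ESC only. The differences were 0.13 (SE 0.043, adjusted p = 0.0094) at ESC, 0.36 (SE 0.047, adjusted p = 2.4e-08) at T24 and 0.40 (SE 0.049, adjusted p = 4.2e-09) at T48, and the first was not called without iEZR_CA ESC replicate 1 (0.06, adjusted p = 0.21) or WT ESC replicate 2 (0.12, adjusted p = 0.054). Against ESC, Phlda3 at T48 fell to 49.5% in WT and 59.0% in iEZR_CA cells.

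Zmat3 (chr3:32334792-32366014, minus strand), the gene of an RNA-binding zinc finger protein that acts downstream of p53, rose on exit in both lines. WT libraries held 3240, 3525 and 3407 normalized counts at ESC, 4419, 4492 and 4655 at T24, and 3904, 4139 and 4258 at T48. iEZR_CA libraries held 2493, 2494 and 2541 at ESC, 3720, 3930 and 3573 at T24, and 4053, 3868 and 3778 at T48. iEZR_CA libraries were below WT at ESC (-0.44, SE 0.036, adjusted p = 1.3e-15) and T24 (-0.27, SE 0.034, adjusted p = 1.6e-09), and the lines overlapped at T48 (-0.06, SE 0.034, adjusted p = 0.11). The rise from ESC to T48 was 0.26 (SE 0.035) in WT and 0.64 (SE 0.036) in iEZR_CA cells.

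The last 3 members act in apoptosis, where the effectors Bax and Bak1 open the outer mitochondrial membrane, guardians such as Mcl1 and Bcl2l1 hold them back, and BH3-only proteins such as Bbc3 (PUMA) and Pmaip1 (NOXA) bind the guardians. Bax (chr7:45461697-45466898, minus strand) held 2267, 2426 and 2608 normalized counts in WT ESC, 2530, 2527 and 2579 in WT T24, and 1883, 1985 and 2076 in WT T48. In iEZR_CA cells it held 1959, 2008 and 2037 at ESC, 2498, 2358 and 2262 at T24, and 2236, 2347 and 2403 at T48. As for Trp53 and Mdm2, iEZR_CA libraries were below WT at ESC (-0.29, SE 0.041, adjusted p = 4.9e-08) and above at T48 (0.24, SE 0.042, adjusted p = 2.9e-06). The T24 difference of -0.10 (SE 0.041, adjusted p = 0.027) lost its call when any of WT T24 replicates 1 and 3 or iEZR_CA T24 replicates 2 and 3 was left out. In the GENCODE M21 models, Gm45808, on the same strand, overlaps 192 exonic bases (12.2%) of Bax. Some Bax reads may therefore be missing, and how many was not measured. No other member overlapped another gene in its exons.

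Bbc3 (chr7:16308393-16318205, plus strand) was lower in iEZR_CA cells at each of the 3 stages. WT libraries held 742, 803 and 774 normalized counts at ESC, 1032, 1070 and 963 at T24, and 818, 839 and 797 at T48. iEZR_CA libraries held 601, 547 and 609 at ESC, 784, 805 and 803 at T24, and 677, 655 and 670 at T48. No iEZR_CA library reached the WT libraries of its stage, and the differences were -0.42 (SE 0.053, adjusted p = 2.9e-10), -0.36 (SE 0.048, adjusted p = 1.1e-09) and -0.28 (SE 0.051, adjusted p = 1.9e-06) at ESC, T24 and T48. Both lines peaked at T24, with a rise of 0.39 (SE 0.048) in WT and 0.45 (SE 0.053) in iEZR_CA cells, and the line by time term was not called at T24 (0.06, adjusted p = 0.57) or T48 (0.14, adjusted p = 0.13).

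Pmaip1 had the largest changes of the 10 genes. WT libraries held 74.2, 94.1 and 89.4 normalized counts at ESC, 871, 952 and 886 at T24, and 4854, 4986 and 4721 at T48. iEZR_CA libraries held 117, 107 and 111 at ESC, 233, 245 and 203 at T24, and 2303, 2405 and 2230 at T48. All 6 groups were separate, in the order WT T48, iEZR_CA T48, WT T24, iEZR_CA T24, iEZR_CA ESC and WT ESC. Pmaip1 rose 10.5-fold by 24 h and 56.5-fold by 48 h in the group means of WT cells, and 2.03-fold and 20.7-fold in iEZR_CA cells. The step of the first 24 h was thus the smaller one in iEZR_CA cells, while the step from T24 to T48 was 10.2-fold in iEZR_CA and 5.38-fold in WT cells. Between the lines Pmaip1 was -1.99 (SE 0.061, adjusted p = 3e-39) at T24 and -1.06 (SE 0.037, adjusted p = 2.8e-36) at T48. At ESC the difference was 0.35 (SE 0.114, adjusted p = 0.0079) and was not called without WT ESC replicate 1 (0.27, adjusted p = 0.063).

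**Figure D2:**
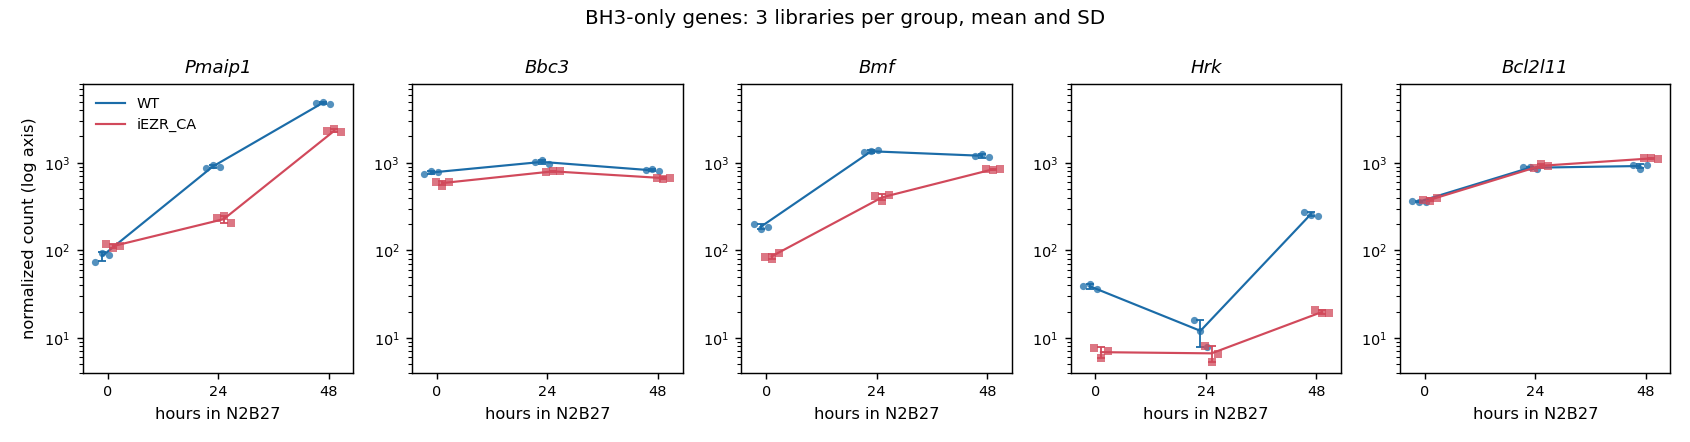
Normalized counts of 5 BH3-only genes (vertical axes, logarithmic) against hours in N2B27, with libraries as points, means joined by lines and SD of 3 libraries as bars. At T24 and T48, Pmaip1, Bmf and Hrk differ between the lines more than Bbc3 does, and the Bcl2l11 lines lie close together at ESC and T24 and differ by 0.28 on the log2 scale at T48.

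In 2i+LIF, 8 of the 10 genes were called lower and 2 higher in iEZR_CA cells, in a comparison where 54.5% of all genes tested were called (28.1% lower and 26.4% higher) and 65.3% of those with a mean normalized count of at least 50, which includes the members. The median log2 fold change of the 10 genes was -0.26, beside -0.0092 over all genes. Of the 10 values, 4 lay within the range of the middle 50% of all genes and 10 within that of the middle 90%. With spike-in scaling only Bbc3, Zmat3 and Trp53inp1 were called, all lower, against 29.8% of all genes.

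At T24, 7 members were called lower and 2 higher (Sesn1 and Phlda3), beside 60.9% of all genes called (30.1% lower and 30.8% higher) and 72.0% of those with a mean of at least 50, and the median was -0.13. At T48 the balance was the other way, with 5 higher (Trp53, Mdm2, Sesn1, Bax and Phlda3) and 3 lower (Ccng1, Bbc3 and Pmaip1), beside 61.1% of all genes (31.0% higher and 30.1% lower) and 70.9% of those with a mean of at least 50, and the median was 0.12. For the 9 targets without Trp53, 4 were higher and 3 lower at T48, and their median was 0.0055, so as a set they were not shifted. The medians over all genes were close to 0 at both stages, and with spike-in scaling 2 members were called at T24 (Phlda3 higher and Pmaip1 lower) and 5 at T48 (Trp53, Mdm2, Sesn1 and Phlda3 higher and Pmaip1 lower), against 38.6% and 39.1% of all genes. Only Pmaip1 differed by more than 1 on the log2 scale, at T24 and T48, a size that 14.9% and 16.1% of all genes reached with a call. The genes on the chromosomes that carry the members had median differences between -0.091 and 0.033 at ESC, between -0.044 and 0.024 at T24 and between -0.011 and 0.029 at T48.

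**Figure D3:**
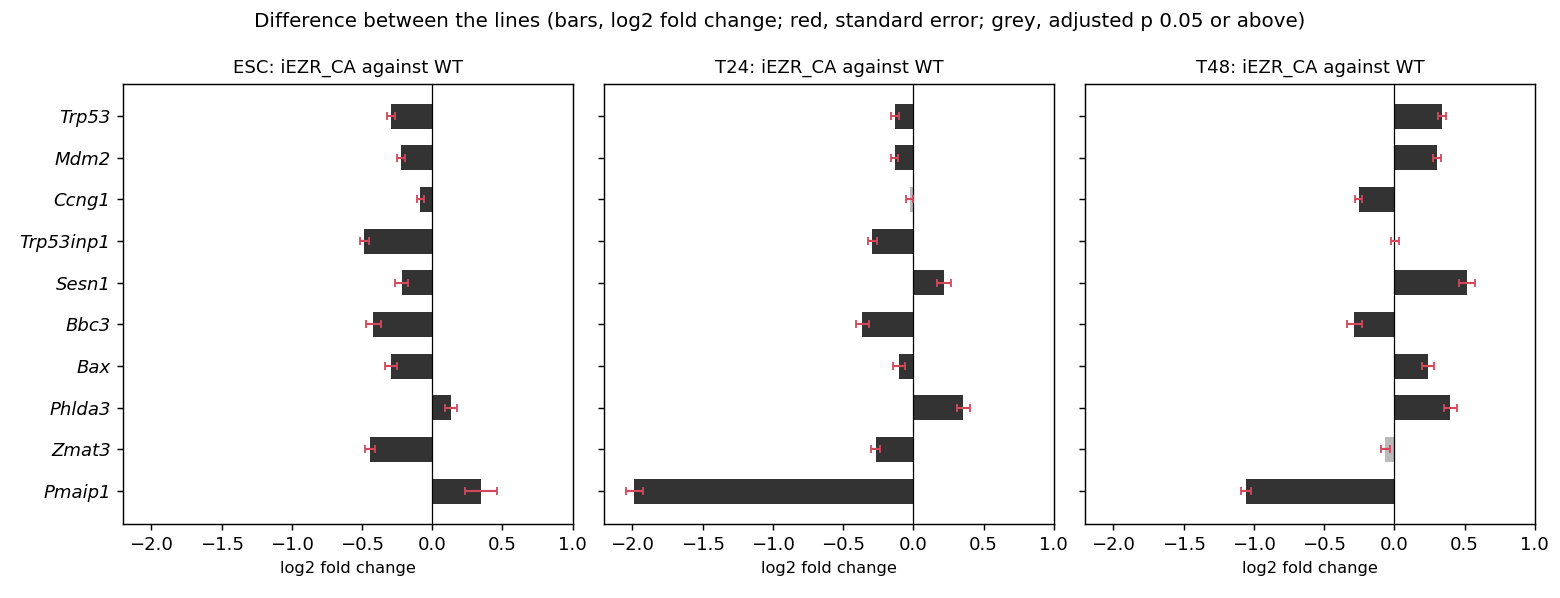
Log2 fold changes of iEZR_CA against WT cells (horizontal axes) for Trp53 and the 9 targets at ESC, T24 and T48. Bars are edgeR estimates, red lines the standard error, and grey bars were not called. Trp53 passes from -0.29 at ESC to 0.34 at T48, Bbc3 stays below 0, and Pmaip1 reaches -1.99 at T24.

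On exit, WT cells had 4 members higher (Trp53, Bbc3, Zmat3 and Pmaip1) and 4 lower (Mdm2, Ccng1, Sesn1 and Phlda3) at T24, beside 65.4% of all genes called (31.8% higher and 33.6% lower). At T48 against ESC, 2 were higher (Zmat3 and Pmaip1) and 7 lower, beside 74.5% of all genes (37.1% higher and 37.4% lower), with a median of -0.51. T48 against T24 had 1 higher and 8 lower beside 65.7% (32.8% and 32.9%). iEZR_CA cells had 6 members higher and 1 lower (Phlda3) at T24, beside 56.0% of all genes (27.1% higher and 28.9% lower). At T48 against ESC they had 4 higher (Bbc3, Bax, Zmat3 and Pmaip1) and 6 lower, beside 70.1% (35.2% higher and 35.0% lower), and T48 against T24 had 1 higher and 7 lower beside 59.6% (29.6% and 30.0%). Of genes with a mean of at least 50, the shares called in iEZR_CA cells were 66.4%, 78.5% and 70.5%, in the same order. The largest fall of a member over 48 h was that of Sesn1 in WT cells (-1.17, SE 0.053) and that of Phlda3 in iEZR_CA cells (-0.76, SE 0.045). In WT cells spike-in scaling raised the median of all genes by 0.14 at T24 and 0.27 at T48, and in iEZR_CA cells by 0.15 and 0.25, and changes in time are given relative to the typical gene.

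Whether the change from ESC differed between the lines was tested by the line by time term, in which a positive value means that a gene fell less or rose more in iEZR_CA cells. The terms use the same libraries as the comparisons above, and both share the ESC groups. At T24, 6 members had a positive term and 1 a negative one, beside 38.3% of all genes called (21.5% positive and 16.9% negative). At T48, 7 had a positive term and 2 a negative one, beside 45.8% (25.7% positive and 20.0% negative). At T48 the positive terms ran from 0.27 (Phlda3) to 0.74 (Sesn1), with Trp53 at 0.63 (SE 0.038, adjusted p = 4e-23) and Mdm2 at 0.53 (SE 0.040, adjusted p = 2.6e-18). The negative ones were Ccng1 at -0.17 (SE 0.037, adjusted p = 0.00011) and Pmaip1 at -1.40 (SE 0.121, adjusted p = 5.5e-16). The median of the members was 0.43, beside 0.024 over all genes. With spike-in scaling 1 member had a called term at T24, which was Pmaip1, against 13.1% of all genes.

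Over the 6 group means, the member most like Trp53 was Trp53inp1 (Pearson's r = 0.94), and the member most like Mdm2 was Sesn1 (r = 0.94). Pmaip1 was the least like both, with r = -0.71 for Trp53 and r = -0.81 for Mdm2. Among 12794 genes the nearest to Trp53 were Ddias, Gm8146 (r = 0.996 each) and Ech1 (r = 0.995), and the nearest to Mdm2 were Mtr (r = 0.993), Plekhb2 (r = 0.991) and Rasa3 (r = 0.990). These are descriptions over 6 points that share their libraries and their 2 lines.

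Cdkn1a encodes p21, the cell cycle inhibitor that is the classical p53 target. In WT cells its mean fell from 5051 ± 47.7 normalized counts (SD, n = 3) at ESC to 1629 ± 15.3 at T24 and 1252 ± 23.2 at T48. In iEZR_CA cells it fell from 5371 ± 215 to 2194 ± 46.4 and 1684 ± 29.4. Cdkn1a thus fell while Pmaip1 rose in both lines, and it was higher in iEZR_CA cells by 0.43 at T24 (SE 0.034) and T48 (SE 0.036). A gene on the opposite strand, AC167363.2, overlaps 273 exonic bases of Cdkn1a, and the strand setting of the counting is not given in the sources used here.

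Of 31 other p53 targets, 5 were called higher at ESC and 11 lower for iEZR_CA against WT cells. The counts were 13 higher and 10 lower at T24, while at T48 they were 10 and 12. The genes called thus numbered 16, 23 and 22 of 31, beside 54.5%, 60.9% and 61.1% of all genes at the 3 stages. The medians were 0.05, 0.20 and -0.02. The largest rises were those of Rrm2b (a ribonucleotide reductase subunit, 0.47) at ESC, Ephx1 (an epoxide hydrolase, 1.32 and 1.37) at T24 and T48, Perp (a desmosomal membrane protein, 0.85) at T24 and Plk3 (a polo-like kinase, 1.08) at T48. The largest falls were those of Gls2 (a mitochondrial glutaminase, -0.84) and Tnfrsf10b (a death receptor, -0.74) at ESC, Gadd45a (a stress sensor, -1.07) and again Tnfrsf10b (-0.78) at T24, and Ddit4 (an mTORC1 inhibitor, -1.60) and Tnfrsf10b (-0.94) at T48. Like Bbc3, Tnfrsf10b was lower in iEZR_CA cells at all 3 stages, whereas Gls2, lower at T24 too (-0.48), was higher at T48 (0.47, SE 0.060), and Plk3 had been lower at ESC (-0.30) and T24 (-0.28). Tnfrsf10b lies on chromosome 14, which is not among the chromosomes whose medians are given above, and the part of its position was not tested. Ei24 was the other rise at ESC (0.26).

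Among 22 regulators of p53, 5 were higher and 8 lower in iEZR_CA cells at ESC, 5 and 7 at T24, and 9 and 4 at T48. That is 13, 12 and 13 of 22 called, beside the same 54.5%, 60.9% and 61.1% of all genes. Mdm4, the partner of Mdm2 that blocks p53 activity, fell in WT cells from 6158 ± 171 normalized counts (SD, n = 3) at ESC to 2863 ± 174 at T48, and in iEZR_CA cells from 5160 ± 176 to 3256 ± 85.1. Its difference between the lines was -0.26 (SE 0.046) at ESC and 0.19 (SE 0.049) at T48, and the T24 value of -0.07 (SE 0.046) was not called (adjusted p = 0.18). Trp53bp1, a DNA break response protein that binds p53, was higher at ESC (0.25) and lower at T24 (-0.88) and T48 (-0.79). Trp73, a relative of Trp53, was lower at ESC (-0.82), T24 (-0.47) and T48 (-0.48). The other genes with the largest rises or falls of the list at a stage were Cop1 (a ubiquitin ligase, 0.17) and Ppp1r13b (a p53-binding ASPP protein, -0.64) at ESC, Usp10 (a deubiquitinase, 0.32), Cdkn2a (which encodes an Mdm2 inhibitor, 0.30) and Ppp1r13l (an inhibitory ASPP protein, -0.80) at T24, and Hipk2 (a p53 kinase, 0.55) and Sirt1 (a deacetylase, 0.50) at T48. Of these, Ppp1r13b was higher at T24 (0.19) and T48 (0.39), and Sirt1 was lower at ESC (-0.22). Usp10 lies on chromosome 8, whose genes had a median difference of 0.24 at T24, and the part of its chromosome was not tested.

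Of the other BCL-2 family genes, 12 of 13 were tested, and 2 were higher and 6 lower in iEZR_CA cells at ESC, 2 and 5 at T24, and 5 and 6 at T48. The genes called were 8, 7 and 11 of 12, beside 54.5%, 60.9% and 61.1% of all genes. Bmf, another BH3-only gene, rose in WT cells from 185 ± 12.1 normalized counts (SD, n = 3) at ESC to 1351 ± 44.9 at T24, and in iEZR_CA cells from 85.4 ± 6.52 to 403 ± 31.5. Its difference between the lines was -1.13 (SE 0.105) at ESC, -1.75 (SE 0.054) at T24 and -0.50 (SE 0.049) at T48. Hrk, also a BH3-only gene, reached 260 ± 14.9 in WT T48 but 19.8 ± 0.982 in iEZR_CA T48 (log2 fold change -3.70, SE 0.152). Hrk was already lower in iEZR_CA cells at ESC (-2.51, SE 0.288), with a mean of 38.8 in WT and 6.87 in iEZR_CA ESC. At T24 Hrk stood at low counts in both lines (-1.02, SE 0.366). Bmf, Hrk and Pmaip1 were thus all called lower in iEZR_CA cells at 24 h and 48 h. Bmf and Hrk, unlike Pmaip1, were called lower at ESC too. The list also holds the BH3-only genes Bid, Bad and Bik, which did not share 1 direction. Mean normalized counts in WT and iEZR_CA cells were 1170 and 930 at T24 and 1045 and 822 at T48 for Bid. For Bad they were 347 and 371 at T24 and 209 and 244 at T48. For Bik they were 29.3 and 26.6 at T24 and 47.3 and 37.0 at T48.

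Bcl2l11, which encodes the BH3-only protein BIM, was not called between the lines at ESC (0.06, adjusted p = 0.47) or T24 (0.08, adjusted p = 0.16) and was higher at T48 (0.28, SE 0.047). Mcl1, the guardian that NOXA binds, was lower in iEZR_CA cells at ESC (-0.24, SE 0.029) and T24 (-0.49, SE 0.028) and higher at T48 (0.55, SE 0.028). Bcl2l1 was higher at ESC (0.47), T24 (0.52) and T48 (0.10), and Bak1, the effector beside Bax, was higher at T24 (0.36) and T48 (0.54). Bok, a BAX relative, was higher at ESC (0.60) and lower at T48 (-0.51), and Bcl2l2, another guardian, was lower at ESC (-0.49), T24 (-0.23) and T48 (-0.71). Bcl2l2 lies on chromosome 14, as does Tnfrsf10b, and the part of that position was not tested.

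**Figure D4:**
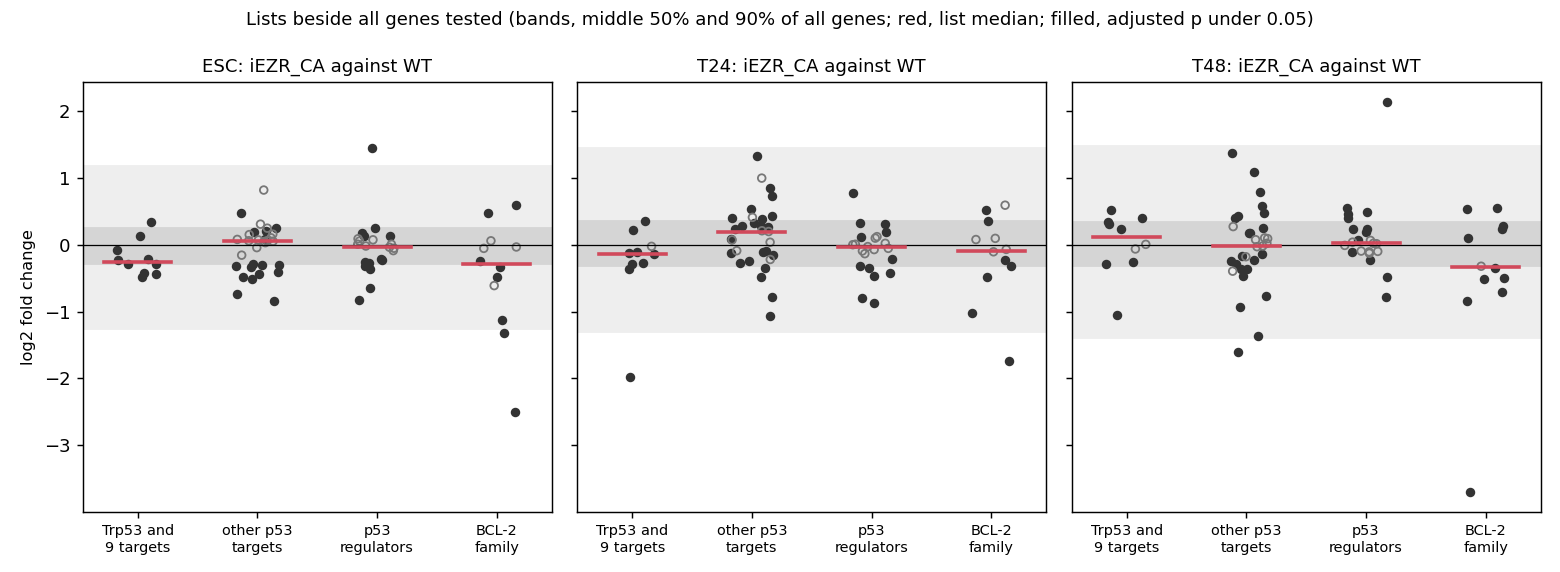
Log2 fold changes of iEZR_CA against WT cells (vertical axis) for 4 gene lists at ESC, T24 and T48. Each point is a gene (filled, adjusted p under 0.05), red lines are list medians, and bands hold the middle 50% and 90% of all genes. The medians of Trp53 and the 9 targets are -0.26, -0.13 and 0.12, and most points of each list lie inside the bands.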

How the data were processed

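Libraries of polyadenylated RNA from WT and iEZR_CA cells at ESC, T24 and T48 (3 biological replicates per group, 18 libraries) were sequenced in pairs on a NovaSeq. Per the study's methods and the labels, the authors trimmed reads with Trim Galore 0.6.5, used GSNAP 2015-09-29 to align them to GRCm38 (mm10), and ran HTSeq with the gene models of Ensembl release 81. The authors deposited raw whole-number counts for each gene, neither normalized nor pooled. The strand setting is not given in the sources used here. HTSeq drops ambiguous reads (4.51% to 4.76% of a library) and reads not aligned uniquely (0.0761% to 0.169%), which lowers the counts of overlapping genes and close copies. Reads not aligned (12.4% to 14.1%), in no gene (3.54% to 4.62%) or of low quality, and spike-in sequences (0.575% to 0.884%), were left out of the tests.

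Symbols and coordinates (GRCm38) came from GENCODE M21, which held 53706 of the 53801 gene identifiers. The tests were run in R 4.3.3 with edgeR 4.0.16: filterByExpr by group, TMM factors (0.975 to 1.03), 1 fit over all 18 libraries with a term per group (12 residual degrees of freedom, common biological coefficient of variation 2.98%), the quasi-likelihood F test with robust fitting, and p-values adjusted by Benjamini-Hochberg over 18469 genes with a threshold of 0.05. Standard errors were derived from each fold change and its F value, and the prior count was 0.125. Normalized counts use DESeq2 1.42.0 size factors. Replicates are numbered in accession order, which names them only. Replicate pairs differed by more than sampling noise (chi-square per degree of freedom 1.55 to 3.33). The fit was tested on simulated counts.

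The 10 members and the gene lists were chosen with earlier results of these data known. The text names the members, Ezr, Cdkn1a, Mdm4 and, for each list and each comparison of the lines, the 2 largest rises and 2 largest falls that were called and had 50 or more normalized counts on average, and for Trp53 and Mdm2 the 3 genes most alike over the group means. Bcl2l11 and Rps27l were named after their values were seen. Alternatives were DESeq2, DESeq2 size factors in edgeR, spike-in scaling, other count filters, fits on the groups compared alone and leaving out each library. Response elements could be searched only in RefSeq promoter windows (GRCm38.p6), not in the wider region planned. Trp53inp1, Zmat3 and Pmaip1 were not searched.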

Additional observations from a re-analysis of the deposited data

Results flagged for a closer look

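For 7 members at T24 and 9 at T48, the change from ESC differed between the lines by the line by time term of the edgeR fit. The shares called were 38.3% and 45.8% of all genes, and 48.7% and 56.8% of those with a mean normalized count of at least 50. With spike-in scaling 1 member, Pmaip1, was called at T24. At T24 the terms, as log2 differences of iEZR_CA from WT cells, were 0.16 for Trp53, 0.19 for Trp53inp1, 0.44 for Sesn1, 0.19 for Bax, 0.22 for Phlda3, 0.18 for Zmat3 and -2.33 for Pmaip1. At T48 they were 0.63 for Trp53, 0.53 for Mdm2, -0.17 for Ccng1, 0.49 for Trp53inp1, 0.74 for Sesn1, 0.53 for Bax, 0.27 for Phlda3, 0.38 for Zmat3 and -1.40 for Pmaip1. Bbc3 had no called term at either stage. Of the 6 pluripotent cell markers, 5 had a called positive term and 1 a negative one at T24, and 5 and 0 at T48. Their part in the members' terms was not tested.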

How the results depend on the processing

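No paired analysis was possible because the labels carry no replicate numbers. With DESeq2, DESeq2 size factors in edgeR, other filters on low counts or only the groups compared, the number of members called stayed within 1.5 times its value in all 11 comparisons, and leaving out a library gave between 9 and 10 (ESC), 8 and 9 (T24) and 8 and 9 (T48) calls between the lines. Over these left-out libraries the calls were 8 to 9 for WT T24 against ESC, 9 for WT T48 against ESC and T24, 7, 10 and 8 to 9 for the iEZR_CA comparisons (T24 and T48 against ESC, T48 against T24), and 7 to 8 and 9 for the line by time terms. Spike-in scaling lowered the calls between the lines to 3 (ESC), 2 (T24) and 5 (T48), those of WT T24 against ESC to 4 and WT T48 against T24 to 5, those of iEZR_CA T48 against ESC to 5 and against T24 to 4, and the line by time terms at T24 to 1. Of all genes it called 29.8%, 38.6% and 39.1% between the lines, and 46.7%, 47.8%, 58.7%, 37.5% and 13.1% in the others, in this order. The median of the members became -0.20, -0.060 and 0.18 between the lines, 0.18, -0.25 and -0.22 in WT (T24 and T48 against ESC, T48 against T24) and 0.38, 0.027 and -0.14 in iEZR_CA cells, the iEZR_CA T48 value of -0.23 thus turning sign. Of the changes called with TMM, those that turned sign were those of Ccng1 in WT T24 (0.035) and T48 (0.14), Ezr in WT T48 (0.021), and Mdm2 (0.080), Usp10 (0.050), Sirt1 (0.13) and Bak1 (0.17) in iEZR_CA T48, each against ESC. Without a filter on low counts the median was 0.15 between the lines at T48, -0.54 in WT T48 against ESC and 0.48 for the line by time terms at T48, and with at least 10 counts in every library it was -0.47 in WT T48 against ESC and -0.23 in iEZR_CA T48 against T24. With a library left out the median ranged from -0.27 to -0.24, -0.14 to -0.12 and 0.082 to 0.15 between the lines, from 0.027 to 0.044, -0.54 to -0.48 and -0.37 to -0.33 in WT, from 0.20 to 0.26, -0.25 to -0.23 and -0.26 to -0.22 in iEZR_CA cells, and from 0.15 to 0.18 and 0.40 to 0.46 for the line by time terms. The ratio of spike-in counts to counts on genes varied within a group by 2.28% to 22.7% (coefficient of variation, highest in iEZR_CA T48), and the cause of the differences was not tested.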
